A study of Mus musculus with 4 samples.

Results

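The genes described here encode the proteins of the cytosolic ribosome. They were chosen by symbol alone: Rpl or Rps followed by a digit, Rplp0, Rplp1, Rplp2 and Rpsa, leaving out symbols that contain -ps and the Rps6k kinase genes. The rule found 87 of the 27998 genes in the count tables. Of these, 77 are core ribosomal protein genes, with 43 of the large subunit, 3 of its stalk and 31 of the small subunit. The other 10 are paralogs of a core gene or carry a ribosomal protein's name for another reason.

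The cells came from 4 libraries, 1 for each antibody given to wild-type 129S6 mice, an inbred strain, that carried transplanted tumours. The antibodies were a rat IgG2a isotype control, clone RMP1-14 against PD-1, clone 9D9 against CTLA-4, or the last 2 in combination, each given by intraperitoneal injection at 200 µg on days 3, 6 and 9 after the transplant. All groups shared the tumour transplant, collagenase digestion, removal of red cells and a sort for live CD45+ cells, the leukocytes of the tumour. The sources used here give neither the tumour line, nor the age of the mice, nor how many went into a library. The comparisons asked how the immune cells of a treated tumour differed from those of a control tumour.

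A ribosome is built from a small subunit, which reads the messenger RNA, and a large subunit, which joins amino acids. Each protein of a subunit is needed in about equal number, and most of their messenger RNAs begin with a run of pyrimidines (C or T in the DNA) that couples their translation to mTOR signalling. Growing and dividing cells raise ribosome production, and small lymphocytes are known to devote a large part of their messenger RNA to these genes. Mature neutrophils contain little RNA.

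In each library, transcripts were counted by their unique molecular identifiers (UMIs), so that 1 count is 1 captured transcript, read from its 3′ end, and the count does not grow with the length of the gene. The cells listed by the authors numbered 3793 for control, 3417 for anti-PD-1, 3336 where anti-CTLA-4 was given alone and 3945 for the combination, 14491 in all. Where 4 values follow each other "in library order" below, this is their order, and 3 values "in treated order" are those of the last 3 libraries. Their totals ran from 11176246 to 13374294 UMIs per library and the median UMIs per cell from 2549 to 2991. Of 14382 distinct barcode sequences, 109 occurred in at least 2 libraries. With 1 library per group no test between groups was possible, and every interval below covers counting error only. Cells were grouped by the authors' 19 numbered clusters, and a cluster is called "X-like" where fixed marker genes named it. Clusters 3, 6, 8, 9 and 10 were T cell-like and clusters 1, 2, 4, 7 and 15 macrophage/monocyte-like. Cluster 18, with 55 cells led by the collagen gene Col3a1, was tumour or fibroblast-like, although the sort was for CD45.

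The start of the transcript is shown for 7 members, because it carries the pyrimidine run shared by many ribosomal protein genes and because each of the 7 is taken up below. Each window holds 15 bases before and 15 from the annotated start, 5′ to 3′ on the gene's strand, from RefSeq on GRCm38.p6, the assembly behind mm10. Capitals mark a C followed by at least 4 pyrimidines that starts within 5 bases of the annotated start, where the base before the C is not itself a pyrimidine unless the C lies at the annotated start.
Rps15a, chr7:118116133-118116162, minus strand: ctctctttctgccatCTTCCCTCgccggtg
Rpl35, chr2:39005117-39005146, minus strand: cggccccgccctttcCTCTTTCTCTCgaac
Rps27, chr3:90213634-90213663, minus strand: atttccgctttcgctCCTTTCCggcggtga
Rps27rt, chr9:114982725-114982754, minus strand: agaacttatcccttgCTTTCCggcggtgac
Rpl31, chr1:39367836-39367865, plus strand: cttcctcctcgCCTCCCCgtgacccggaag
Rps27l, chr9:66946071-66946100, plus strand: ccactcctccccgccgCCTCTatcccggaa
Rpl12, chr2:32961697-32961726, plus strand: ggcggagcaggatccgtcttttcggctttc
In Rps15a, Rpl35, Rps27 and Rps27rt the run began exactly at the annotated start, in Rpl31 and Rps27l within 5 bases of it, while in Rpl12 the only such C follows a T and is not marked. Over the 66 members found in the RefSeq table, 14 (21.2%) had such a run exactly at an annotated start, against 813 (3.01%) of the 27025 genes in the table. Within 5 bases the shares were 36.4% of members and 15.6% of all genes, or 45.5 and 21.2%, with Rpl12 among them, where any base could come before the C, a rule added after the data were seen. Of 42 mitochondrial ribosomal protein genes, whose products work in another ribosome, 0 had the run at the start and 19.0% within 5 bases. The search read the gene's own strand only. It rests on annotated starts, and the starts used in these cells were not measured. Among the members not matched were Rpl7, Rps20, Rpl21, Rpl32, Rpl6l, Rplp1, Rpl29, Rps27a, Rpl23a, Rps29, Rpl30, Rpl8, Rpl3, Rpl36, Rps14 and Rpl17.

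Ribosomal protein genes took 8025101 of 47589092 UMIs, or 16.9%. Core genes held 97.9% of these. The most counted was Rpl41, whose product is the smallest protein of the large subunit, with 333000 UMIs or 6997 CPM, the UMIs of a gene per 1000000 UMIs. Rps27 (small subunit) followed with 267253 UMIs, and Rps29 (small subunit) with 248548. Rpl13 of the large subunit had 235446 UMIs, Rps19 of the small subunit 199466 and Rpl37a 197067. Rps14 had 187156, Rpl32 171160 and Rpl35 166910. The 10 other members ranged from 0 UMIs for Rpl10l, known as the testis form of Rpl10, to 93179 for Rps27rt, a near copy of Rps27. Rpl39l and Rpl3l, known mainly from testis and from striated muscle, had 100 and 272. A separate set of 16 symbols with -ps, left out by the rule, held 103541 UMIs, or 1.29% of the members' total. Reads of the members and of such copies could not always be told apart: 98-base stretches, the length of the sequenced read, near the 3′ end occurred in another gene for 66 of the 86 members with a transcript in the annotation, and made up over 50% of the stretches for 24.

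The share of a cell's UMIs in these genes split the leukocytes of the tumour by lineage. In the T cell-like clusters together it was 26.1% and in the macrophage/monocyte-like clusters 12.7%. Cluster 6, T cell-like cells led by Cd7, Bcl2, Ltb and the survival cytokine receptor Il7r, was highest at 30.2%. The natural killer cell-like cluster 5 stood at 27.5%, the T cell-like cluster 8, led by Cd8b1 and Cd8a, at 26.9% and the Cd4-led cluster 3 at 25.8%. T cell-like cells in division (cluster 9) had 24.6%, and cluster 10, led by the regulatory T cell factor Foxp3, 23.8%. The unnamed cluster 14, led by the granzyme gene Gzmg and by Ctsg with NK cell markers detected, had 29.4%. Dendritic cells lay in between, with 18.6% in the conventional, 16.9% in the plasmacytoid and 16.6% in the migratory dendritic cell-like cluster. The 5 macrophage/monocyte-like clusters ran from 11.1% in cluster 7, led by interferon-response genes such as Rsad2 and Ifit2, to 15.4% in the dividing cluster 15. Neutrophil-like cells, cluster 12, were lowest at 9.34% (95% Clopper-Pearson interval 9.26 to 9.42%).

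A share is not an amount. Neutrophil-like cells had a median of 41 ribosomal protein UMIs per cell, cluster 6 had 387.5, the Foxp3-led cluster 387 and the dividing T cell-like cluster 1161. The dividing T cell-like cluster therefore had a lower share than cluster 6 but about 3 times the UMIs, at a median depth of 4852 against 1246 UMIs per cell. The median T cell-like cell held 514 such UMIs of 1932 and the median macrophage/monocyte-like cell 426 of 3595. The share also moves with what else a cell makes: the 10 most abundant other genes took 7.49 to 9.01% of UMIs in the T cell-like clusters and 13.4 to 22.4% in the macrophage/monocyte-like ones. With the 50 most abundant other genes left out of the total, the log2 ratio of the T cell-like to the macrophage/monocyte-like share went from 1.04 to 0.70.

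**Figure D1:**
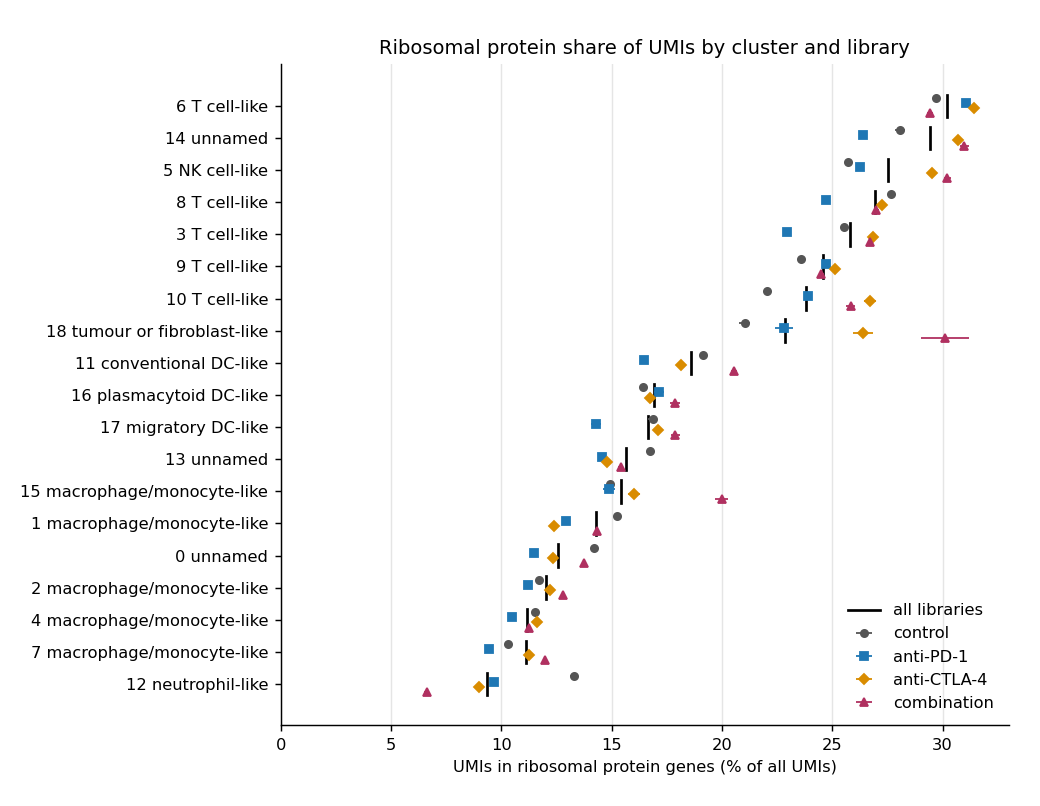
Share of UMIs in ribosomal protein genes (x axis, % of all UMIs) for each of the 19 clusters (y axis, ordered by the share over all libraries, black bars) and each of the 4 libraries (coloured points, with exact 95% intervals that cover counting error). T cell-like and NK cell-like clusters sit above 22% in every library, macrophage/monocyte-like clusters between 9.44 and 19.98%, and the 4 libraries lie farthest apart in the neutrophil-like cluster 12 and the 55-cell cluster 18.

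Single cells showed the same separation. The median share of a cell was 26.2% over 3829 T cell-like cells and 12.6% over 6056 macrophage/monocyte-like cells. A share above 20% was reached by 85.5% of the T cell-like and 6.77% of the macrophage/monocyte-like cells. Among the authors' 12 finer lymphoid clusters, the highest share, 31.6%, belonged to a cluster with Il7r at 386 CPM, most of whose cells lie in cluster 6. The lowest, 21.1%, belonged to the cluster with the most Foxp3 (285 CPM), in which Il7r stood at 425 CPM.

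Of the 86 members with a UMI, all with at least 50 UMIs in the 2 classes, 81 were past a log2 ratio of 0.25 (a 1.19-fold difference in CPM) towards T cell-like cells, where 53% of 10658 genes were. The members' median log2 ratio was 1.05 and that of all genes 0.32. The members outside this pattern were Rps29 and 4 paralogs or namesakes, described below. Other parts of the translation apparatus also leaned to T cell-like cells: all 10 elongation factors and ribosome-associated genes (median 1.10), 25 of 27 initiation factors (median 0.59) and 36 of 39 ribosome biogenesis genes (median 0.81) were above 0. Of 48 mitochondrial ribosomal protein genes 37 were above 0 (median 0.29), near the median of all genes. Of 17 genes of the mTOR and Myc pathways, which govern ribosome production, 8 were above 0 (median -0.07), among them Myc itself at 2.07, while Eif4ebp1, a repressor of translation under mTOR control, was at -1.96.

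The neutrophil-like cluster had a wide spread of per-cell shares, with quartiles of 1.74 and 11.3%. Of its 248 cells, 150 (60.5%) had a ribosomal protein share below 5%, with a pooled share of 2.12% and a median of 25 ribosomal protein UMIs per cell of 1146 in all. The remaining 98 cells had a pooled share of 13.5% and a median of 387.5 such UMIs of 2994. A cut at 5% divides a range, not cell types, and 18 cells lay within 1 percentage point of it. The cut was made on the share itself, so the low and the other cells differ in share by construction. The low cells had a median of 26935 CPM of the neutrophil granule gene S100a8 and 922 CPM of Cd74, the invariant chain of antigen presentation. The other cells had 5935 CPM of S100a8 and 27554 CPM of Cd74. The complement gene C1qb, a macrophage marker, had a median of 0 CPM in the low cells and 197 CPM in the others.

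The low cells made up 20 of 53 cells (37.7%) of cluster 12 in the control library, 19 of 38 (50%) under anti-PD-1, 27 of 41 (65.9%) under anti-CTLA-4 and 84 of 116 (72.4%) under the combination. The pooled share of the cluster was 13.3, 9.66, 8.97 and 6.61% in the same order, so the control library was highest and the combination lowest. The 7 neutrophil markers summed to 2.79, 5.78, 4.16 and 4.50% of the cluster's UMIs, and the 12 macrophage/monocyte markers to 1.81, 1.17, 1.11 and 0.80%. All 19 of these markers had a UMI in each library. The part of this difference in marker content in the difference in share was not tested. Outside cluster 12, cells below 5% were 61 of 850 (7.18%) in cluster 7 and at most 1.82% of any other cluster, with 0 in every T cell-like, NK cell-like and dendritic cell-like cluster.

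**Figure D2:**
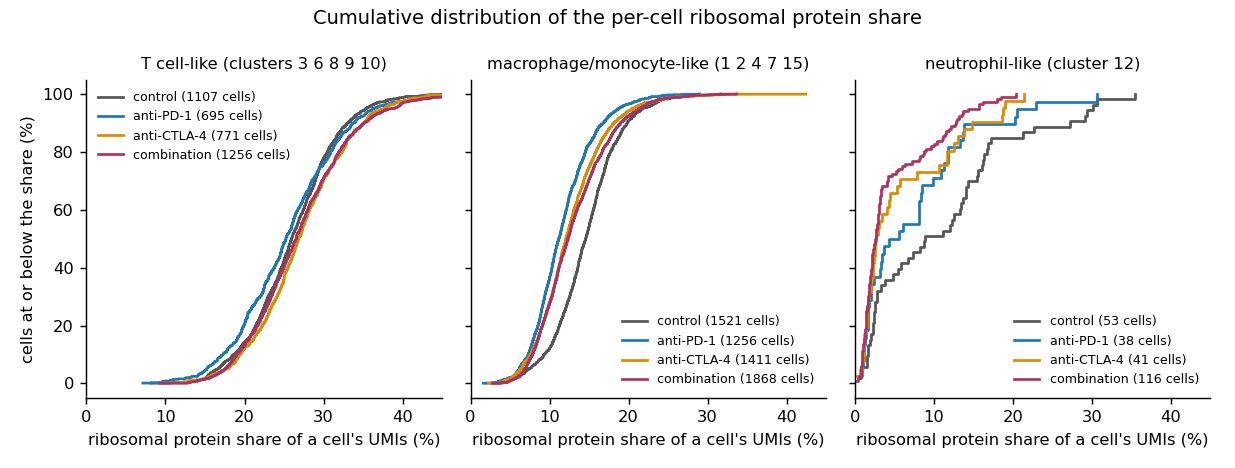
Cumulative distribution of the per-cell ribosomal protein share (x axis, % of a cell's UMIs; y axis, % of cells at or below that share) in T cell-like, macrophage/monocyte-like and neutrophil-like cells, with 1 line per library. The 4 lines nearly coincide in T cell-like cells, the control line lies to the right of the treated lines in macrophage/monocyte-like cells, and in cluster 12 the 4 lines separate, with 72.4% of combination cells and 37.7% of control cells below 5%.

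Whole libraries differed less than clusters did. The share was 17.7, 15.1, 17.3 and 17.3% in library order. The anti-PD-1 library was the low one. It also had the fewest T cell-like cells, 20.3% of its cells against 29.2% in the control library, and the most cells of the unnamed low-share cluster 0, 26.2% against 13.5%. In cluster 0 all 12 macrophage/monocyte markers were seen in at least 10% of cells, but the neutrophil marker Il1r2 was among its leading genes. Cluster 0 therefore stayed unnamed and outside the macrophage/monocyte-like class. When each cluster was weighted in every library by its part of all listed cells, the shares became 17.95, 16.7, 17.98 and 18.5%. Anti-PD-1 stayed the lowest, while the differences of anti-CTLA-4 and the combination from control turned from below to above 0. The spread between mice is not known for any of these values.

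Within clusters, the anti-PD-1 share was below control in 12 of the 17 clusters with at least 20 cells in each library, with a median difference of -1.68 percentage points. With anti-CTLA-4 6 of 17 were below control and with the combination 7 of 17. All 3 comparisons use the same control library. The clusters that ran highest with treatment were lymphoid. The pooled NK cell-like share was 25.7, 26.2, 29.5 and 30.2% in library order, with the libraries that received anti-CTLA-4 the highest. The median NK cell-like cell was at 26.4, 25.2, 28.8 and 27.25%, with anti-PD-1 below control and the combination below anti-CTLA-4 alone. The Foxp3-led cluster 10 had pooled shares of 22.1, 23.9, 26.7 and 25.8% in the same order, so every treated library was above control by that measure. Its median cell was at 21.50, 20.30, 24.93 and 23.97%, with anti-PD-1 below control. The finer lymphoid cluster with the most Foxp3 had pooled shares of 20.88, 19.04, 22.06 and 23.56%, again with anti-PD-1 below control. The direction with anti-PD-1 therefore depended on the measure and the grouping. Cluster 1, macrophage/monocyte-like cells led by Cd72 and Vcam1, had 15.2, 12.9, 12.4 and 14.3%, with control the highest.

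In macrophage/monocyte-like cells as a class, most ribosomal protein genes were lower in each treated library than in control. The class share was 14.5, 11.4, 12.04 and 12.3% in library order. With anti-PD-1, 66 of 84 members tested were past 0.25 on the log2 scale in the lower direction, where 35.6% of all 8539 genes were, and 0 in the higher direction (19.3% of all genes). With anti-CTLA-4 the lower count was 52 of 85 (40.6% of all genes) and the higher count 1 (19.1%). With the combination it was 39 of 85 (44.5% of all genes) and 1 (17.2%), so that here the members' 45.9% was close to the background. With median-of-ratios scaling the last 2 lower counts were 27 and 14, and the share of all genes under that scaling is not given here. The member medians were -0.36, -0.28 and -0.23 in treated order and those of all genes tested -0.11, -0.15 and -0.19. By subunit, 35 of 43 large, 26 of 31 small and 2 of 3 stalk genes were past the limit with anti-PD-1.

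The macrophage/monocyte-like class was made of different clusters in the 4 libraries. Cluster 1 held 70.7% of it in control and 24.4, 29.6 and 13.6% of it in treated order. Cluster 2, led by Nov, Pf4, Ccl8 and the lipid carrier gene Apoe, held 10.5% in control and 43.7, 30.8 and 36.8% in the treated libraries. Cluster 4, led by Chil3, held 3.62% in control and 31.5% with the combination, and the dividing cluster 15 8.28% in control and at most 0.99% in a treated library. As an alternative, each cluster was weighted in every library by its part of all cells of the class. These weights, equal across libraries and not between clusters, are called equal cluster weights below. With them the member medians were -0.16, -0.10 and 0.02, and those of all genes -0.03, -0.07 and -0.08. In the lower direction 16, 8 and 3 members were then past the limit. Of all genes 2318 of 8539, 2745 of 8577 and 2958 of 8714 were, so the members' shares lay below the background. That background takes in every gene with at least 50 UMIs, and counting error moves genes with few UMIs past the limit more readily. Most members have many UMIs, and the part of depth in this difference was not tested. Cluster by cluster the pattern was mixed. In cluster 1 the member medians were -0.26, -0.32 and -0.08, in cluster 2 -0.10, 0.03 and 0.10, and in cluster 7 -0.12, 0.11 and 0.21. In the unnamed cluster 0, outside the class, they were -0.30, -0.21 and -0.04. The neutrophil-like cluster stood apart at -0.48, -0.61 and -1.05.

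In T cell-like cells few members were past the limit. The class share was 25.5, 25.1, 26.6 and 26.7% in library order. With anti-PD-1, 2 of 84 members were past 0.25 in the higher direction (23.7% of all 6616 genes) and 0 in the lower (24.2%). With anti-CTLA-4, 10 were higher (25.6% of 6938 genes) and 2 lower (28.6%). With the combination, 3 were higher (21.7% of 7185 genes) and 0 lower (26.8%). In all 3 comparisons the members fell short of the background in both directions, with medians of -0.02, 0.10 and 0.06. The part of UMI depth in this shortfall, as in the macrophage/monocyte-like class, was not tested. Dividing cells (cluster 9) made up 12.4, 15.5, 26.2 and 11.5% of the class in library order. Without that cluster 3 members were past the limit in each direction with anti-PD-1, 9 higher and 1 lower with anti-CTLA-4, and 5 higher and 0 lower with the combination. Of all genes 1684 of 6616, 1594 of 6938 and 1630 of 7185 were then higher in treated order, and 1751, 2159 and 2127 lower. Between 4 and 7 of the 12 macrophage/monocyte markers were seen in at least 10% of the cells of each T cell-like cluster, and the part of free or carried-over RNA in these ratios was not tested.

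**Figure D3:**
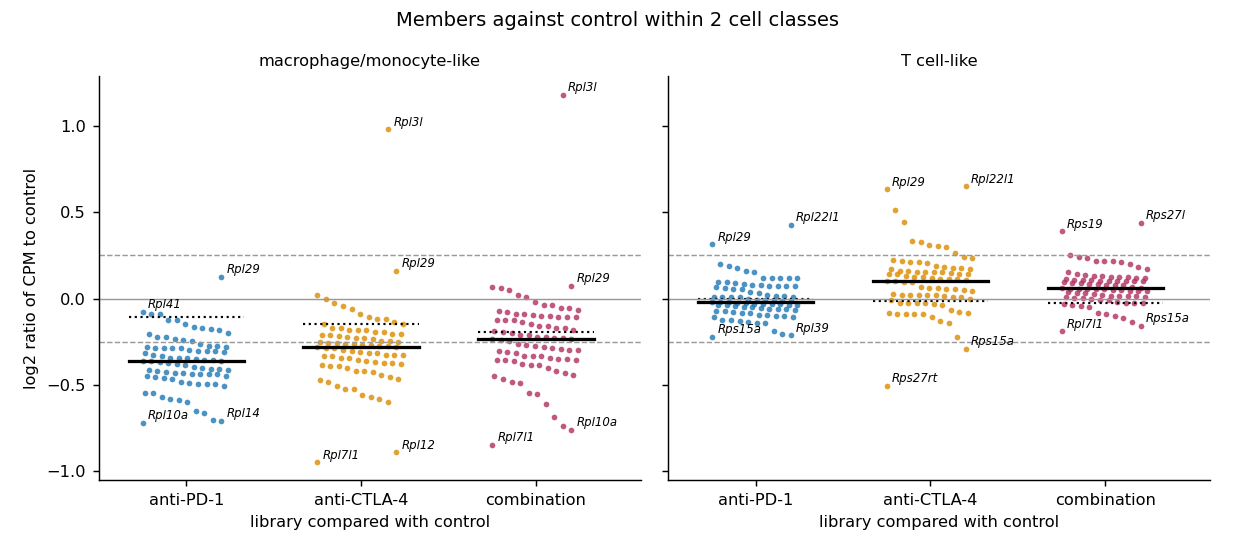
Log2 ratio of CPM to control (y axis) of every member tested, as points, for each treated library (x axis) in the macrophage/monocyte-like and the T cell-like class. Solid bars mark the member median, dotted bars the median of all genes tested and dashed lines the limits of 0.25; in macrophage/monocyte-like cells the member medians lie at -0.36, -0.28 and -0.23, below the all-gene medians, and in T cell-like cells at -0.02, 0.10 and 0.06.

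Across cell types the members kept close to one pattern, and a handful did not. The departure of a member in a cluster is its log2 CPM after taking away its own mean over clusters and the cluster's median over members. Over 84 members with at least 1000 UMIs and 18 clusters with at least 100 cells, 96.8% of 1512 departures were within 0.5. Of the 84 members, 72 had a Pearson correlation above 0.9 over the 18 clusters with the remaining members' level (median 0.97), as a description of clusters that share libraries and totals. The standard deviation (SD) of departures had a median of 0.17 over members. It was largest in 3 non-core members, Rps27l (0.94), Rpl7l1 (0.52) and Rps19bp1 (0.51). The core genes Rps29 (0.45), Rpl31 (0.42), Rpl12 (0.41) and Rps15a (0.38) followed, then Rpl36al (0.37), Rps27rt (0.36) and Rps27 (0.35). Just outside these 10 were Rps9 (0.34), Rpl13a (0.32), Rpl10 (0.31) and Rpsa (0.30). The SD that counting alone would give was 0.08 for Rps27l, 0.16 for Rpl7l1, 0.19 for Rps19bp1 and at most 0.06 for the other 7. The lowest SD, 0.07, belonged to Rpl6l, a copy of Rpl6 that the gene annotation of GRCm38 marks as a processed pseudogene.

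**Figure D4:**
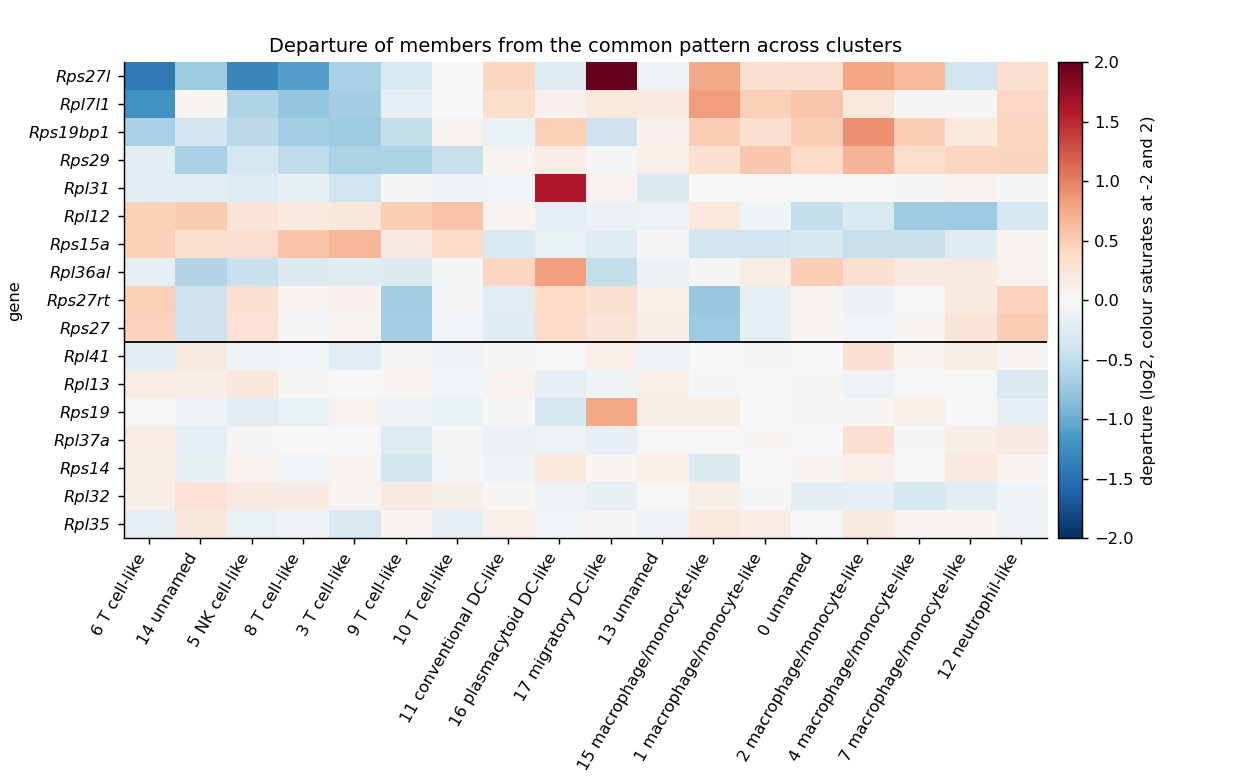
Departure of 17 members (rows) from the common pattern in 18 clusters (columns, ordered by ribosomal protein share), as colour on a log2 scale that saturates at -2 and 2; the 10 members with the largest SD are above the line and other most-counted members below it. Rps27l in cluster 17 (2.62, beyond the colour scale) and Rpl31 in cluster 16 (1.61) are the strongest, and Rps27 and Rps27rt share 1 pattern.

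Among small subunit genes, Rps29 did not follow the lineage split. It encodes a zinc-binding protein of the small subunit. It was at 5439, 5801, 5297 and 5031 CPM in T cell-like cells and at 5825, 5263, 5138 and 4730 CPM in macrophage/monocyte-like cells, both in library order. The 2 classes thus overlapped across libraries, and the pooled log2 ratio was 0.02 (95% interval 0.01 to 0.04), where the members' median was 1.05. Its departure in cluster 1 was 0.39, 0.57, 0.68 and 0.59 in library order, positive in each.

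Rps15a went the other way. This small subunit gene, ENSMUSG00000008683 in the files and at chr7:118104372-118116188 on the minus strand of GRCm38, was at 4121, 3531, 3372 and 3690 CPM in T cell-like cells in library order. In macrophage/monocyte-like cells it was at 1147, 888, 914 and 924 CPM. The lowest T cell-like value was far above the highest macrophage/monocyte-like one, and the pooled log2 ratio, 1.92 (1.89 to 1.94), was the highest of all members. It is 1 of the 14 members with a pyrimidine run exactly at an annotated start. Others of these were Rpl35 with a ratio of 0.80, Rps27 with 1.08 and Rpl14 with 1.35. Any link between the run and the ratio was not tested.

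Rps27 and Rps27rt departed together, downward most in the dividing clusters. Rps27 encodes a zinc-finger protein of the small subunit, and Rps27rt, on another chromosome, shares 248 of 277 read-length stretches at its 3′ end with it, so reads from one can be counted for the other. In the dividing T cell-like cluster 9 the departure of Rps27 was -0.54, -0.56, -0.66 and -0.80 in library order, and that of Rps27rt -0.54, -0.63, -0.65 and -0.77. In the dividing macrophage/monocyte-like cluster 15, where only the control library had enough cells, Rps27 was at -0.67. Over all libraries the pair was also down in other clusters, at -0.42 and -0.41 in the unnamed cluster 14. In the conventional dendritic cell-like cluster 11 it was at -0.24 and -0.23. In CPM, Rps27 stood at 13702 in cluster 6 and 5452 in cluster 9. Over the clusters the departures of the pair differed by at most 0.08. The ratio of their UMIs was 2.64, 2.80, 3.16 and 2.95 in library order.

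Of the large subunit genes, Rpl31 stood out in plasmacytoid dendritic cell-like cells, the producers of type I interferon. Rpl31 encodes a protein near the exit of the peptide tunnel and lies at chr1:39367842-39371911 on the plus strand (ENSMUSG00000073702). In cluster 16 it was at 2484, 3233, 3371 and 3425 CPM in library order, from 57, 36, 29 and 35 cells. Every library was above the 1532 CPM of cluster 14, the next highest of the clusters with at least 100 cells, and the departure over all libraries was 1.61. The 10 cells with the most UMIs of it held 20.5% of the cluster's Rpl31 UMIs. An exon of Rpl31 overlaps an exon of Tbc1d8 on the opposite strand, and the sources used here do not state whether counting used strand.

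Rpl12, which encodes a protein at the base of the stalk, leaned to T cell-like cells, least in the control library. It was at 995, 1080, 1104 and 1091 CPM in T cell-like cells and at 457, 281, 247 and 273 CPM in macrophage/monocyte-like cells, both in library order. The groups did not overlap, and the log2 ratio was 1.12, 1.94, 2.16 and 2.00 in library order, or 1.72 (1.68 to 1.76) pooled. For Rpl13a, also of the large subunit, the pooled ratio was 1.68 (1.67 to 1.70) and that of the control library 1.58, above Rpl12. An exon of Lrsam1 overlaps an exon of Rpl12 on the opposite strand.

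**Figure D5:**
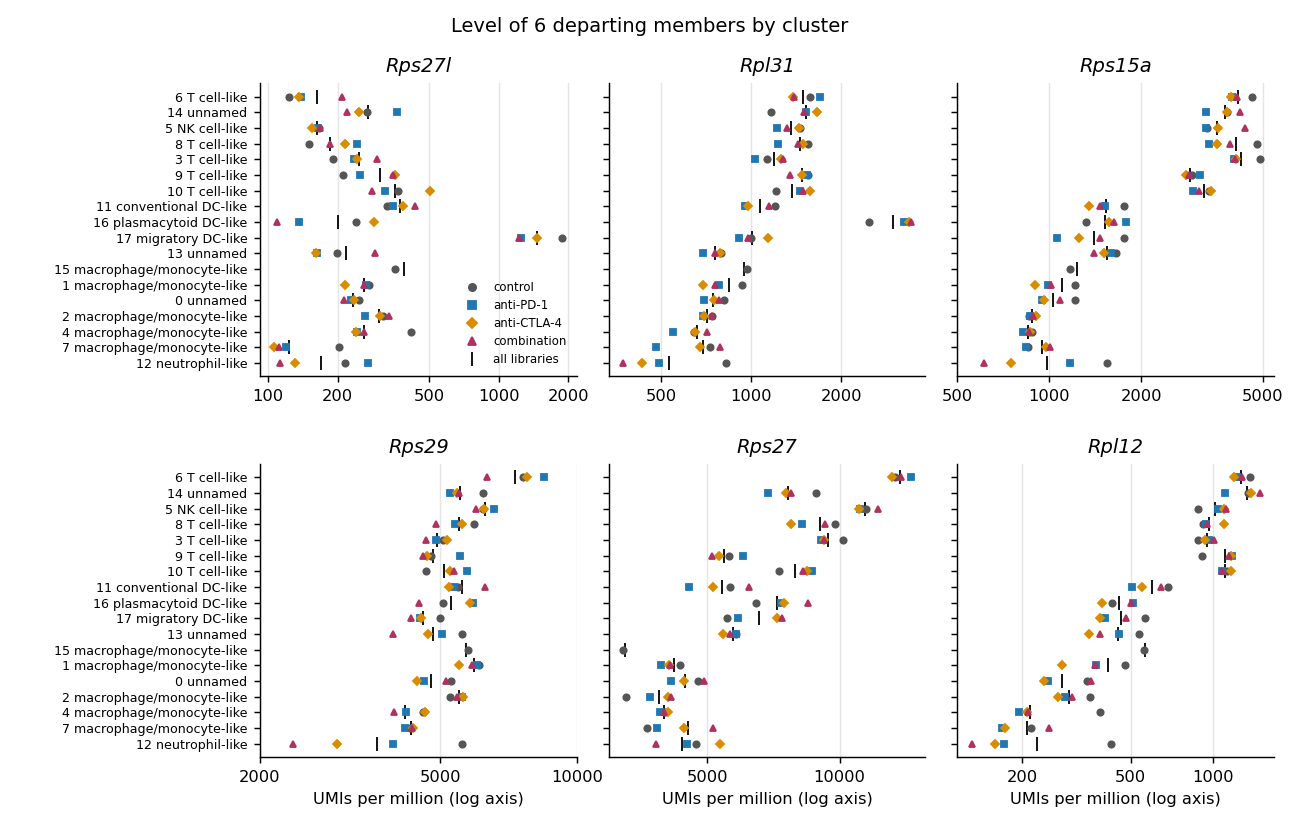
Level of 6 departing members (x axis, CPM on a log scale) in 18 clusters (y axis), with 1 coloured point per library with at least 20 cells in that cluster and black bars for all libraries together. Rps27l is highest in cluster 17 and Rpl31 in cluster 16 in all 4 libraries, Rps15a and Rpl12 separate lymphoid from myeloid clusters, and Rps29 lies within the same range in both.

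Some paralogs and namesakes were among the members that departed most. Rps27l, a paralog of Rps27 known as a target of p53, had a cluster correlation with the other members of only 0.0051. In the migratory dendritic cell-like cluster 17 it was at 1887, 1250, 1461 and 1228 CPM in library order, from 31, 26, 37 and 38 cells. In cluster 6, the T cell-like cluster with the highest ribosomal protein share, it was at 123, 138, 136 and 210 CPM. The 2 clusters were far apart in each library, and the departure of 2.62 in cluster 17 was the largest of all members. The 10 cells with the most Rps27l UMIs held 40.4% of those in cluster 17. None of its 3′ stretches occurred in another gene. In the same cluster Rps19, a small subunit gene known for its mutation in Diamond-Blackfan anaemia, was at 6647, 5695, 6907 and 8018 CPM, a departure of 0.77.

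Rpl7l1, a paralog of Rpl7, was at 95.2 CPM in the dividing macrophage/monocyte-like cluster 15 and 43.2 in cluster 6, departures of 0.84 and -1.21. Rps19bp1, which encodes a binding partner of Rps19 and not a ribosomal protein, ranged only from 32.6 CPM in cluster 17 to 69.6 in cluster 10 among the clusters with at least 100 cells. It therefore departed upward where the ribosomal proteins were low, by 0.92 in cluster 2. Rpl36al, a paralog of Rpl36a, was at 963, 1048, 1159 and 1269 CPM in plasmacytoid dendritic cell-like cells in library order, a departure of 0.82. Rpl22l1, a paralog of Rpl22, leaned to T cell-like cells with 342 against 110 CPM, a log2 ratio of 1.64. Rpl3l was seen as 8 UMIs in T cell-like and 148 in macrophage/monocyte-like cells, a log2 ratio of -2.92 (-4.24 to -1.99), and the ratios of Rps27l (-0.04), Rps19bp1 (-0.01) and Rpl7l1 (0.22) were also under the limit of 0.25. Of the 100 Rpl39l UMIs in all cells, 28 lay in the 55 cells of the tumour or fibroblast-like cluster 18, or 153 CPM there against 2.10 over all cells.

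Between libraries, single members left the median of the others within each class. In macrophage/monocyte-like cells Rpl10a, of the large subunit's L1 stalk, was at 1110, 675, 735 and 656 CPM in library order, so control was the highest. Its log2 ratios were -0.72, -0.60 and -0.76 in treated order, and -0.37, -0.26 and -0.24 with equal cluster weights. Rpl12 had ratios of -0.70, -0.89 and -0.74, or -0.43, -0.62 and -0.30 with equal weights, and was thus among the lowest members in all 3 comparisons. Rpl14 (large subunit) was at -0.71 with anti-PD-1, or -0.41 with equal weights. Rpl7l1 was at 39.0 CPM with anti-CTLA-4 and at 41.9 CPM in the combination library, against 75.3 in control, log2 ratios of -0.95 (-1.19 to -0.71) and -0.85 (-1.06 to -0.63), or -0.75 and -0.48 with equal weights.

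At the other end, Rpl29 did not share the lower level. This large subunit gene was at 166, 181, 185 and 174 CPM in library order, log2 ratios of 0.13, 0.16 and 0.07. With equal cluster weights they were 0.32, 0.34 and 0.25, past the limit in each comparison. Rpl41 was at -0.08 with anti-PD-1 and 0.00 with anti-CTLA-4, or 0.05 and 0.14 with equal weights. Rps27 was at 0.02 and 0.06 with anti-CTLA-4 and the combination, Rpl24 (large subunit) at 0.06 with the combination and Rps19bp1 at -0.09 with anti-PD-1. These 4 values were 0.10, 0.15, 0.12 and -0.04 with equal weights. Rpl3l was the one member past the limit in the higher direction before that weighting. It had 29 UMIs in control, 42 with anti-CTLA-4 and 62 in the combination library, log2 ratios of 0.98 (0.27 to 1.72) and 1.18 (0.53 to 1.88). With equal cluster weights 1 member was past the limit with anti-CTLA-4. This was Rpl29, as given above, so Rpl3l was under the limit there. Its weighted value with the combination is not given here.

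In T cell-like cells Rpl29, Rpl22l1 and Rps27l were the highest members with each single antibody, and Rps27l, Rps19 and Rpl29 with the combination. Rpl29 was at 317, 394, 491 and 377 CPM in library order, and every treated library was above control. Its log2 ratios were 0.32, 0.63 and 0.25, the last of which was 0.22 and under the limit with equal cluster weights. Copies of Rpl29 share 39.1% of its 3′ stretches. Rpl22l1 was at 275, 369, 431 and 312 CPM, with ratios of 0.43 (0.27 to 0.58) and 0.65 (0.52 to 0.79) for the single antibodies and 0.18 for the combination. Without the dividing cluster these were 0.26, 0.53 and 0.01. Rps27l was at 204, 234, 291 and 276 CPM, ratios of 0.20, 0.51 and 0.44, which became 0.17, 0.22 and 0.32 without the dividing cluster. Rps19 had a ratio of 0.39 with the combination.

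Rps15a was among the 3 lowest members of T cell-like cells in each comparison, at -0.22, -0.29 and -0.16, with control the highest of the 4 libraries. Rpl39 and Rpl17, both of the large subunit, were at -0.21 and -0.20 with anti-PD-1. Rps27rt was at 3431 CPM in control and 2420 with anti-CTLA-4, a ratio of -0.50 (-0.55 to -0.46), and at -0.14 with the combination. Rps27 was at -0.22 with anti-CTLA-4. Without the dividing cluster the ratios of Rps27rt and Rps27 with anti-CTLA-4 were -0.33 and -0.04. Rpl7l1 was at -0.19 (-0.50 to 0.13) with the combination.

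Among T cell-like cells, genes that build ribosomes were more often higher with a single antibody than the ribosomal proteins were, as a count of genes and with no test of the difference. Of 34 ribosome biogenesis genes tested in T cell-like cells, 23 were past 0.25 in the higher direction and 0 in the lower with anti-PD-1, where the background is 23.7 and 24.2%. With anti-CTLA-4 the counts were 23 and 0, against 25.6 and 28.6% of all genes. With the combination they were 8 and 5, near and below the 21.7 and 26.8% of all genes, or 5 and 6 with equal cluster weights. The medians were 0.35, 0.38 and 0.03, against -0.02, 0.10 and 0.06 of the ribosomal proteins. Without the dividing cluster the counts were 23 higher and 2 lower, 12 and 5, and 3 and 12. Of all genes 1684 of 6616, 1594 of 6938 and 1630 of 7185 were then higher, and 1751, 2159 and 2127 lower. The biogenesis medians became 0.33, 0.12 and -0.08, against -0.05, 0.09 and 0.06 of the ribosomal proteins, so the medians lay close with anti-CTLA-4. The 3 biogenesis genes that differed most with the combination were Noc2l at 0.91 (0.25 to 1.63), Nop2 and Wdr12, all factors of large subunit assembly. In macrophage/monocyte-like cells 24 of 34, 26 of 34 and 25 of 35 were past the limit in the lower direction (medians -0.42, -0.55 and -0.41), where 35.6, 40.6 and 44.5% of all genes were. With equal cluster weights the counts were 16, 18 and 9, where 2318 of 8539, 2745 of 8577 and 2958 of 8714 genes were. The last share thus lay below the background. There, with the combination, the largest were Rrp1b at -1.51, Dkc1, the pseudouridine synthase of ribosomal RNA, at -0.95 and Nop16 at -0.91.

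Elongation factors and ribosome-associated genes went with the ribosomal proteins in macrophage/monocyte-like cells. In the lower direction 8, 8 and 6 of the 10 were past the limit, against 35.6, 40.6 and 44.5% of all genes. In the higher direction 0 were. With equal cluster weights only 2, 1 and 0 of the 10 were past it in the lower direction (medians -0.17, -0.15 and -0.03). Of all genes 2318 of 8539, 2745 of 8577 and 2958 of 8714 were. Eef1a1, which brings amino acids to the ribosome, was at -0.49 with the combination, Eef2 at -0.45 and Naca at -0.32, before that weighting. In T cell-like cells 2, 2 and 0 of the 10 were higher and 0 lower. Of 27 initiation factors, 11, 13 and 11 were lower in macrophage/monocyte-like cells, shares near those of all genes. With equal weights 4, 9 and 5 were, shares near or below the background under that weighting. Eif4a2, a helicase of initiation, was higher with the combination in macrophage/monocyte-like (0.62) and in T cell-like cells (0.50). In T cell-like cells 7, 10 and 3 initiation factors were higher, where 23.7, 25.6 and 21.7% of all genes were, so that the first count was at the background and the last below it. In the lower direction there were 3, 0 and 0, against 24.2, 28.6 and 26.8% of all genes. Of 48 mitochondrial ribosomal protein genes 9, 20 and 19 were lower in macrophage/monocyte-like cells, below or near the background. With equal weights 4, 9 and 5 were, shares below the background under that weighting. Myc had ratios of -0.92, -1.57 and -1.22 in macrophage/monocyte-like cells, on 83 UMIs in control and 31, 20 and 33 in the treated libraries, and 0.70, 0.78 and 0.73 in T cell-like cells. The genes encoded by the mitochondrial genome were lower with the combination in both classes. In macrophage/monocyte-like cells 12 of 13 were past the limit (median -0.50), against 44.5% of all genes. With equal cluster weights 5 of 13 were (median -0.17), near the background under that weighting. In T cell-like cells 8 of 13 were, against 26.8% of all genes.

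Some genes outside the rule followed the members across clusters. By Pearson correlation of log2 CPM with the log2 ribosomal protein share over the 18 clusters, among 2373 genes, the first was Gm10036 at 0.99. Also among the first 10 were Gm9493, Wdr89, the elongation factor gene Eef1g (0.97) and the -ps symbols Rpl36-ps3, Rpl9-ps6, Rpl13-ps3, Rpl23a-ps3 and Rpl27-ps3. Gnb2l1, the small subunit scaffold also known as Rack1, had 0.95 and rank 21. Fau, which encodes a ubiquitin-like fusion with a small subunit protein, had 0.77 and rank 281. Gm10036 shares read-length stretches with Rpl11, Gm9493 with Rps7 and Wdr89 with Rplp2. Rpl9-ps6, Rpl13-ps3, Rpl23a-ps3 and Rpl27-ps3 share them with the members they are named for. Reads of these members could therefore have been counted for those genes. No such sharing with a member was found for Rpl36-ps3 or Eef1g. The part of shared reads in the correlations was not tested. The correlations describe 18 clusters that share the same libraries.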

How the data were processed

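For 4 libraries the authors deposited unnormalized UMI counts, whole numbers for each gene and barcode, made with the Chromium 3′ kit v1 per the labels' protocols. Cell Ranger, Seurat and the mm10 build are named, per the submitters' processing notes. Versions, annotation, strand setting and the handling of multi-mapping reads were not given in the sources used here. Cluster numbers came from the authors' deposited tables for 14493 cells, of which 14491 had a matrix column, and 127 barcodes were not listed. The number of value columns that could not be mapped to a sample was 0.

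UMIs were summed per cluster, class and library (Python 3.11.15, numpy 2.4.6, scipy 1.17.1, pandas 2.3.3). Shares carry exact Clopper-Pearson 95% intervals. Log2 ratios of CPM, with 0.5 added to each count, carry exact conditional binomial 95% intervals. PCR duplicates are removed by UMIs, and the intervals cover counting error only. Genes with at least 50 UMIs in the 2 libraries compared were tested against a limit of 0.25 on the log2 scale. Counting error moves genes with few UMIs past that limit more readily, so the share of all genes past it also depends on depth. With 1 library per group no p-value was computed. No doublet caller was used. Cluster 13, which carried T cell and macrophage markers together, was kept out of both classes, and the 3% of cells with the most UMIs were left out as an alternative. Cluster names were rebuilt from markers (at least 3 seen in at least 10% of cells) and may differ from the authors' own. The scripts were tested on simulated data.

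The members, gene lists and alternatives were chosen with earlier results of these data known. Genes named are the 10 members with most UMIs, the 10 with the largest SD of departures, the 3 highest and 3 lowest departures per class and comparison (at least 100 UMIs), all non-core members with at least 1000 UMIs, Fau, Gnb2l1, the 10 most similar genes and up to 3 per translation list with the largest ratio in the combination. Rpl3l, Rpl39l, Rpl10l, Eif4ebp1, the members just outside the largest SDs, and genes that identify clusters were named after their values were seen. Some genes that the rule names, and a rerun with genes added to the members, are not reported here.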

Additional observations from a re-analysis of the deposited data

Results flagged for a closer look

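For 4 members given here the log2 ratio to control lay past 0.25 in opposite directions in the 2 classes, each class being 1 library against 1. The difference between classes was not tested. With anti-PD-1 35.6% of all genes were lower in macrophage/monocyte-like cells and 23.7% higher in T cell-like cells. With anti-CTLA-4 these shares were 40.6 and 25.6%. The share of all genes past the limit in both classes at once is not given here, so whether 4 members are many cannot be told. Rpl22l1 was at -0.309 in macrophage/monocyte-like and 0.4263 in T cell-like cells with anti-PD-1. Its ratios with anti-CTLA-4 were -0.4709 and 0.6508. The other 3 were all found with anti-CTLA-4. Rpl28, of the large subunit, was at -0.3237 in macrophage/monocyte-like and 0.3016 in T cell-like cells. Rps27l was at -0.3122 and 0.5136, and Rps2, which encodes a protein of the messenger RNA entry site, at -0.3818 and 0.4431. With equal cluster weights Rps27l with anti-CTLA-4 was at -0.35 and 0.44, but without the dividing clusters its T cell-like ratio was 0.22, under the limit. With equal weights Rpl22l1 (-0.16 and 0.56), Rpl28 (-0.06 and 0.29) and Rps2 (-0.12 and 0.41) were no longer past the limit in both classes.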

How the results depend on the processing

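No paired analysis was possible because each group had 1 library. The log2 ratio of the T cell-like to the macrophage/monocyte-like share, 1.04, was 1.02 from the mean of per-cell shares, 0.70 without the 50 most abundant other genes, 1.05 without the 3% of cells with the most UMIs and 1.03 after thinning to 1000 UMIs per cell. The library ratios to control in treated order, -0.23, -0.035 and -0.034, were -0.25, -0.11 and -0.049 as means of cells, -0.20, -0.014 and -0.0063 without the abundant genes, -0.27, -0.11 and -0.076 without the 3% of cells, and -0.27, -0.12 and -0.074 after thinning. Thinning left out 11, 195, 123 and 322 cells in library order. With all barcodes the first 2 were -0.22 and -0.024, and without mitochondrially encoded genes the third was -0.038. With each cluster weighted by its part of all listed cells they were -0.11, 0.0026 and 0.045, a change of direction for the last 2. Counts of members lower in macrophage/monocyte-like cells, 66, 52 and 39, were 16, 8 and 3 with equal cluster weights, shares below the background under that weighting. With median-of-ratios scaling the last 2 were 27 and 14, and the background under that scaling is not given here. Its totals differed from the UMI totals by -0.06, -0.10 and -0.15 (log2, treated order), so that every ratio rose by as much. The member median of the combination was 0.023 with equal cluster weights, against -0.23. The T cell-like counts in either direction, 2, 12 and 3, became with anti-PD-1 4 (equal weights), 1 (core members), 6 (no dividing cluster) and 4 (thinned), and with the combination 5 (median-of-ratios), 5 (no minimum), 5 (no dividing cluster), 7 (thinned) and 5 (members left out of the total). In the combination library alone 6 of the 10 members with the largest departures were among its own 10. The causes were not tested. Of 54 alternative values of the member medians, 51 moved by less than the SD over members, 2 by more and 1 changed direction. Genes under 50 UMIs in a comparison, such as Rpl39l, cannot be compared at this depth.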

Other observations

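The 127 barcodes that the authors' table does not list, 21 to 47 per library, had a median of 16627 UMIs and a ribosomal protein share of 22.2%. The share was 20.6, 22.4, 23.5 and 24.5% in library order, each above the share of the listed cells in the same library. They entered no comparison.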
